A study of Mus musculus with 2 samples.

Results

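Expression of genes that build and supply the primary cilium was measured in mouse osteoblasts, the bone-forming cells, after 6 h in 4 mM phosphate or in 1 mM phosphate. The set held 54 genes for intraflagellar transport, its motors, the BBSome, the transition zone, the basal body and the ciliary membrane, chosen with earlier results of these arrays in view. Members were found as the probe sets whose annotation named only 1 of these genes, which gave 80 probe sets for 50 genes, out of 34945 probe sets and 18193 genes named in all. Of these 50 genes, 49 had a signal above the floor of 21.5 on at least 1 array. The floor is the median of all signals on both arrays, and dimmer signals were raised to it before ratios were taken. Tmem67, the transition zone receptor meckelin, lay under the floor with 13.0 in 4 mM and 5.00 in 1 mM phosphate. Arl6, Arl13b, Pkd2 and Rpgrip1l had no probe set naming only them and were not analysed here.

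Both samples were primary osteoblasts from the skull caps of 5-day-old C57BL/6 mice, deprived of serum overnight before treatment. The treated culture received serum-free medium with 4 mM phosphate, added as buffered sodium phosphate, and the control culture received the unmodified medium with 1 mM phosphate, at a pH of 7.2 in either case. There was a single array for each, the number of mice behind each is not given in the sources used here, and no test between conditions was possible. Every ratio below therefore describes 2 arrays, and the number of arrays limits its precision.

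The primary cilium is a single, non-motile, microtubule-based antenna that grows from the older centriole once a cell leaves the cycle, and serum withdrawal in culture favours it. Intraflagellar transport (IFT) builds it. Kinesin-2 carries trains of the IFT-B complex to the tip, and dynein-2 with the IFT-A complex brings them back. The BBSome moves membrane receptors out of the cilium, and the transition zone at its base gates what enters. In osteoblasts the cilium is known for sensing fluid flow and for Hedgehog signalling.

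Osteoblast markers were present on both arrays. All 7 osteoblast markers with a probe set were above the floor and within 1.5-fold on their brightest probe sets. Of all genes, 12.1% were at least 1.5-fold lower and 7.26% higher. Col1a1 had a signal of 11889 in 4 mM and 10139 in 1 mM phosphate, and Sp7 had 1223 in 4 mM and 1600 in 1 mM. A dimmer probe set of Col1a2 was higher, with 224 in 4 mM and 131 in 1 mM (log2 ratio 0.78). Cartilage markers were present too. All 7 chondrocyte markers were above the floor on both arrays, Col2a1 with 4364 in 4 mM and 4809 in 1 mM and Comp with 6715 in 4 mM and 6312 in 1 mM. Their summed signal was 16232 in 4 mM and 16551 in 1 mM, with a median log2 ratio of 0.09. Only the dim Col10a1 was at least 1.5-fold higher, with 94.0 in 4 mM and 53.2 in 1 mM (0.82), against 7.26% of all genes. None was 1.5-fold lower, against 12.1%. Markers of motile cilia had little signal. Of 11 motile cilium markers with a probe set, only Rsph1 (27.2 in 4 mM, 33.2 in 1 mM) and Tekt2 (21.9 in 4 mM, 19.6 in 1 mM) exceeded the floor on any array, and Foxj1, the master regulator of motile cilia, did not. All 5 endothelial markers were under the floor on both arrays. Macrophage markers were present, with none at the floor. On their brightest probe sets 10 of 10 were below 0 in log2 ratio, against 55.9% of all genes, and 3 were at least 1.5-fold lower, against 12.1%. Their median log2 ratio was −0.55, and their summed signal 12688 in 4 mM and 14636 in 1 mM phosphate. They ranged from −0.80 for Aif1 to −0.03 for Lyz2, the brightest, with 7745 in 4 mM and 7895 in 1 mM. Proliferation genes had a median of −0.11, with 11 of 11 above the floor on both arrays and within 1.5-fold. Cdk1 had 1223 in 4 mM and 1099 in 1 mM, and Mki67 528 in 4 mM and 682 in 1 mM. The part of these cells and states in the cilium values was not tested. In a bulk culture, fewer cells of a type and less RNA per cell cannot be told apart.

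Most primary cilium genes had lower signals in 4 mM phosphate than in 1 mM. Of 49 measured members, 46 had a log2 ratio of phosphate over control below 0, against 55.9% of all 12276 measured genes. At least 1.5-fold lower were 19 members (38.8%), against 12.1% of all genes, and 0 members were 1.5-fold higher, against 7.26% of all genes. At least 2-fold lower were 6 members, against 2.92% of all genes, and 0 were 2-fold higher, against 2.3%. Their median log2 ratio was −0.45, with an interquartile range of −0.77 to −0.24, whereas the median of all measured genes was −0.06. Poly-A spikes, RNAs added before labelling, had a median log2 ratio of 0.46, and hybridisation spikes, added after it, of 0.23. Scaling signals to make the poly-A spikes equal on both arrays lowers every log2 ratio by the same amount. All 49 members are then below 0, Ift20, Bbs1 and B9d2 included, against 89.7% of all genes. Then 43 are at least 1.5-fold lower, against 43.1% of all genes lower and 2.07% higher. The genes were chosen with results of this comparison known, so these shares describe the set and are no independent evidence of its direction.

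**Figure D1:**
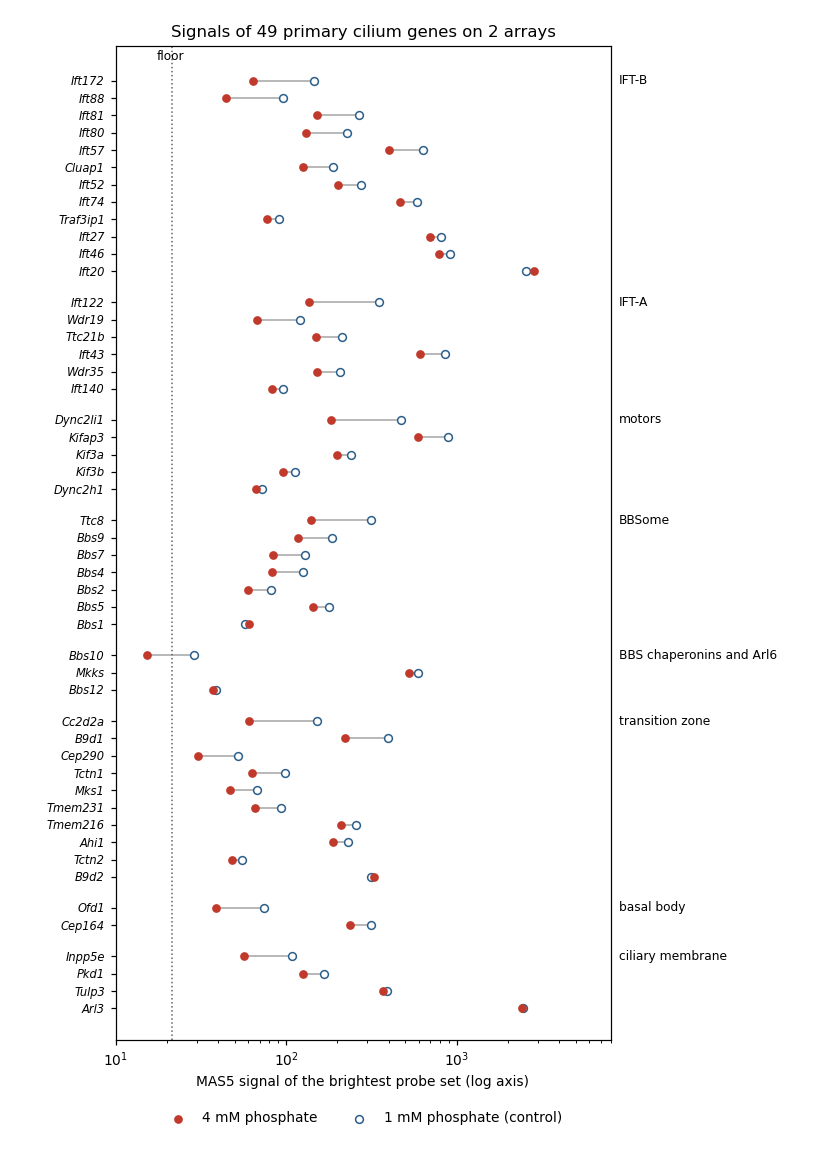
MAS5 signal of the brightest probe set (log axis) for the 49 measured genes, grouped by complex, in 4 mM phosphate (filled red) and 1 mM phosphate (open blue). The dotted line is the floor of 21.5. The red point lies left of the blue one in all genes but Ift20, Bbs1 and B9d2.

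The only error available was technical, namely the spread between probe sets of 1 gene. In log2 ratio its standard deviation was 0.42 for probe sets whose lower signal did not reach 100, 0.26 for those from 100 to 400, and 0.16 for brighter ones. This spread leaves out differences between cultures or arrays that all probe sets of a gene share. It is therefore not the error of a ratio between the conditions. By more than 2 such deviations, 17 of the 49 members were lower, against 13.3% of all genes, and 0 were higher, against 8.22%. The shift was present at low and middle signals. Among genes with a mean signal between the floor and 100, 8 of 18 members (44.4%) were at least 1.5-fold lower, against 18.7% of all genes. Between 100 and 400 the counts were 10 of 22 (45.5%), against 13.7%. Above 400 only Ift57 was, 1 of 9 members (11.1%), against 4.86%, although the median of these 9 was −0.22 and that of all genes so bright −0.01.

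IFT-B, the complex of the outward trains, had 12 members measured, with a median log2 ratio of −0.52. Of these, 11 were below 0, against 55.9% of all genes, and 6 at least 1.5-fold lower, against 12.1%. Ift172, a large peripheral subunit, had a signal of 63.7 in 4 mM phosphate, against 145 in 1 mM (2.28-fold lower). Ift88, without which mouse cells form no normal cilium, had 44.4 in 4 mM, against 95.7 in 1 mM (2.15-fold lower). Neither gene had a second measured probe set. Ift81, which binds the tubulin cargo together with Ift74, had 152 in 4 mM and 269 in 1 mM phosphate, a log2 ratio of −0.82, and −0.51 on its other measured probe set. Ift74 itself had 465 in 4 mM and 586 in 1 mM, a log2 ratio of −0.33. Both genes of the tubulin-binding pair were below 0. Ift80, mutated in a human skeletal ciliopathy with a narrow chest, had 131 in 4 mM and 229 in 1 mM, with log2 ratios of −0.81 and, on a dimmer probe set, −0.22. Ift57 had 404 in 4 mM and 640 in 1 mM phosphate (log2 ratio −0.66). Cluap1, also an IFT-B subunit, lay just past the 1.5-fold limit at −0.59, with 126 in 4 mM and 189 in 1 mM.

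The other members of IFT-B differed less. Ift52, a core subunit, was at −0.45, and Traf3ip1, a peripheral subunit, at −0.24. Ift46 was at −0.21, with signals of 789 in 4 mM and 915 in 1 mM. Ift27, a small GTPase of the complex, had −0.22 on its brightest probe set, where the signals were 702 in 4 mM and 816 in 1 mM, and −0.36 and −0.82 on the dimmer ones. Ift20, which also works at the Golgi in sorting cargo for the cilium, was the only member of the complex above 0. It had 2856 in 4 mM phosphate, against 2568 in 1 mM, a log2 ratio of 0.15 and the highest of all 49 members.

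IFT-A, the complex of the return trains, had all 6 members below 0 on their brightest probe set, against 55.9% of all genes. Their median was −0.50, and 2 were at least 1.5-fold lower, against 12.1% of all genes. Ift122 had a signal of 136 in 4 mM phosphate, against 350 in 1 mM, and at 2.58-fold lower had the lowest ratio of all members. Its brightest probe set carries a suffix for targets that it may share with other transcripts, and the other one, with 55.6 in 4 mM and 87.3 in 1 mM, gave a log2 ratio of −0.65. Wdr19, a further core subunit, had 67.9 in 4 mM and 121 in 1 mM (−0.84). A second, dim probe set of Wdr19 had 5.44 in 4 mM, under the floor, against 32.5 in 1 mM, which made it at least 1.51-fold lower. Ttc21b, Ift43 and Wdr35 lay close together at −0.51, −0.50 and −0.45, and Ift140 was nearest to 0 at −0.21.

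The 5 motor genes were all below 0 on their brightest probe set, against 55.9% of all genes, with a median of −0.27. At least 1.5-fold lower was 1 of them, against 12.1% of all genes. Dync2li1, the light intermediate chain of dynein-2, had 184 in 4 mM phosphate, against 474 in 1 mM (2.57-fold lower, 1 probe set). Dync2h1, the heavy chain of the same motor, had 66.4 in 4 mM and 72.6 in 1 mM, a log2 ratio of −0.13. These ratios of the same motor lay more than 2 technical deviations of a dim probe set apart. Kifap3, the cargo-binding subunit of kinesin-2, lay just short of the 1.5-fold limit at −0.57, with 598 in 4 mM and 888 in 1 mM, and its other probe set gave −0.67. The kinesin-2 motor subunits had no single direction over their probe sets. The 4 probe sets of Kif3a ranged from −0.69 to 0.03 and the 4 of Kif3b from −0.38 to 0.38.

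Of 7 BBSome subunits, 6 were below 0, against 55.9% of all genes, and 4 were at least 1.5-fold lower, against 12.1%. Their median was −0.61. Mutations of these genes cause Bardet-Biedl syndrome in humans. Ttc8 had a signal of 140 in 4 mM phosphate, against 316 in 1 mM (2.26-fold lower). Bbs9, Bbs7 and Bbs4 formed a narrow group at −0.66, −0.63 and −0.61. Bbs4, which links the complex to pericentriolar material, was below 0 on each of 3 probe sets, between −0.78 and −0.40. Bbs2 and Bbs5 were at −0.44 and −0.31. Bbs1, the subunit that binds Arl6, was the only one above 0, with 60.6 in 4 mM and 57.2 in 1 mM, a log2 ratio of 0.08. The chaperonin-like genes that assemble the BBSome differed little. Mkks had 530 in 4 mM and 592 in 1 mM (−0.16), and Bbs12 had 37.4 in 4 mM and 38.8 in 1 mM (−0.05). Bbs10 had 15.3 in 4 mM, under the floor, against 28.8 in 1 mM, which made it at least 1.34-fold lower.

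The transition zone had 10 members measured, with a median of −0.53. Of these, 9 were below 0, against 55.9% of all genes, and 4 at least 1.5-fold lower, against 12.1%. Cc2d2a, a coiled-coil protein mutated in human Meckel and Joubert syndromes, had 60.6 in 4 mM phosphate, against 153 in 1 mM (2.52-fold lower). B9d1 had 221 in 4 mM and 399 in 1 mM, a log2 ratio of −0.85. Its partner in the B9 complex, B9d2, had 329 in 4 mM and 315 in 1 mM, a log2 ratio of 0.06, and Mks1, the other B9 protein, was at −0.53 between them. Cep290, which bridges microtubules and membrane, was dim, with 30.6 in 4 mM and 52.3 in 1 mM (−0.77). The tectonic genes Tctn1 and Tctn2 were at −0.66 and −0.20, and Tmem231, Tmem216 and Ahi1 at −0.52, −0.29 and −0.29. At the basal body, Ofd1, a centriole and satellite protein, had 39.1 in 4 mM and 74.1 in 1 mM (−0.92). Cep164, a distal appendage protein that docks the centriole to the membrane, had 237 in 4 mM and 317 in 1 mM (−0.42), and −0.89 on a dimmer probe set.

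The 4 measured genes of the ciliary membrane and its lipid and cargo traffic were all below 0 on their brightest probe set. Their median was −0.24, and 55.9% of all genes were below 0. Of the 4 genes, 1 was at least 1.5-fold lower, against 12.1% of all genes. That gene, Inpp5e, a phosphoinositide phosphatase of the ciliary membrane, gave no single answer. It had 56.5 in 4 mM and 109 in 1 mM on 1 probe set (−0.94), and 63.2 in 4 mM and 60.2 in 1 mM on the other (0.07). Pkd1, the receptor-like polycystin-1, was at −0.40, with 126 in 4 mM and 166 in 1 mM. Tulp3, the adaptor that takes receptors into the cilium with IFT-A, was at −0.08, and at 0.24 on a dim probe set. Arl3, the GTPase that releases lipid-anchored cargo, had 2408 in 4 mM and 2454 in 1 mM phosphate, a log2 ratio of −0.03.

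**Figure D2:**
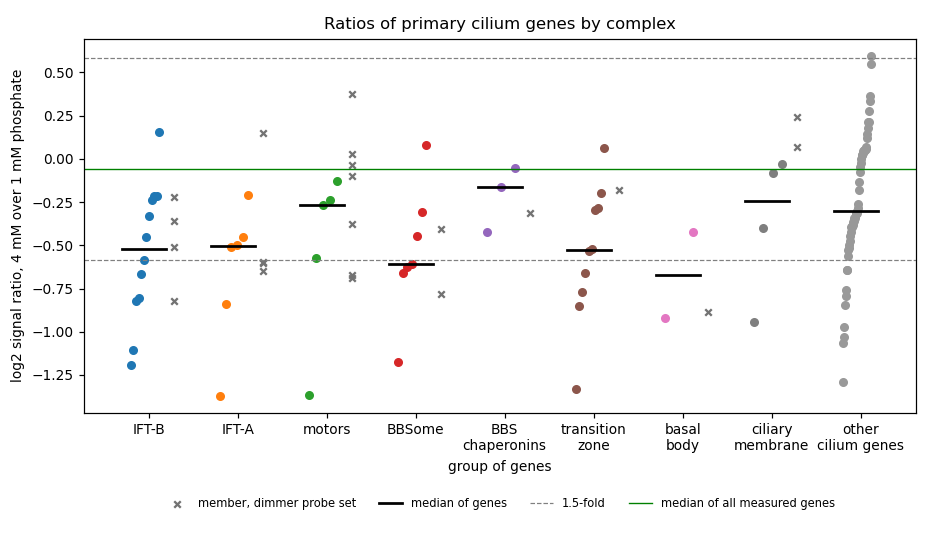
Log2 ratio of 4 mM over 1 mM phosphate for each gene by complex (coloured points, brightest probe set; black bar, median), with the dimmer measured probe sets of members as crosses. Dashed lines mark 1.5-fold and the green line the median of all measured genes, −0.06. The medians of all 8 groups of members lie below the green line, between −0.67 and −0.16, and the groups with more than 3 members overlap one another.

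Of the 80 probe sets of members, 71 were above the floor on at least 1 array and 69 on both. Of these 69, 61 were below 0 and 26 at least 1.5-fold lower, with a median of −0.44. Over all 19125 such probe sets naming 1 gene, 54.1% were below 0, 11.0% were at least 1.5-fold lower and the median was −0.04. Of 15 members with several such probe sets, 10 had all of them below 0, none had all above 0, and Inpp5e, Kif3a, Kif3b, Ttc21b and Tulp3 were mixed. The same count over all genes was not made, and the probe sets of a gene share both arrays.

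Other cilium genes had a median log2 ratio below that of all genes, with a share of 1.5-fold lower genes near the background. The list held 61 further genes of cilium assembly, signalling and transcription, drawn up with the results for the members known, and 55 were measured. Of these, 36 (65.5%) were below 0, against 55.9% of all genes, and 9 (16.4%) were at least 1.5-fold lower, against 12.1%. Only 1 was 1.5-fold higher, against 7.26% of all genes, and the median was −0.30. Above a mean signal of 400 the median of 13 such genes was −0.28, and that of the 9 members −0.22. The lowest was Ttc30b, an IFT-B subunit with a close paralogue, which had 144 in 4 mM phosphate, against 353 in 1 mM (2.44-fold lower). Rpgr, a GTPase regulator at the transition zone, had 29.3 in 4 mM and 61.4 in 1 mM (2.09-fold lower). Wdr60, an intermediate chain of dynein-2, had 59.8 in 4 mM and 122 in 1 mM (2.04-fold lower), and its partner Wdr34, named after its value was seen, was at −0.97. The highest were Alms1, a centrosomal protein, at 0.60, Rfx3, a transcription factor of cilium genes, at 0.55, and Kif24, a centriolar kinesin, at least 1.29-fold higher with 1 mM under the floor. All 3 had signals under 60 on both arrays, Rfx3 with 50.6 in 4 mM and 34.6 in 1 mM.

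**Figure D3:**
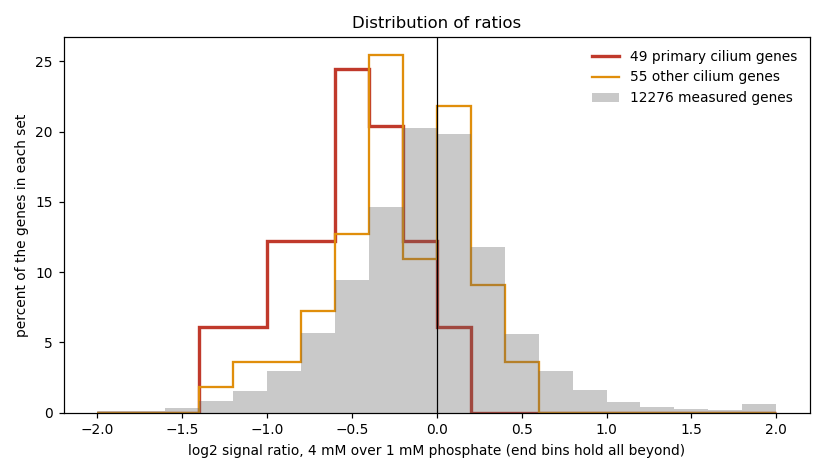
Percent of genes by log2 ratio of 4 mM over 1 mM phosphate in bins of 0.2, for the 49 primary cilium genes (red), 55 other cilium genes (orange) and all 12276 measured genes (grey). The red outline ends at 0.2, and its tallest bin, from −0.6 to −0.4, holds 24.5% of the 49 genes.

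Hedgehog signals pass through the primary cilium in vertebrates. Of 7 measured genes of that pathway, 6 were below 0, against 55.9% of all genes, with a median of −0.47. At least 1.5-fold lower were 2 of them, against 12.1% of all genes, and 1 was 1.5-fold higher, against 7.26%. The transcription factor gene Gli2 had 114 in 4 mM phosphate, against 266 in 1 mM (−1.22), and 53.0 in 4 mM against 72.4 in 1 mM on its other probe set (−0.45). The target genes Ptch1 and Gli1 were at −0.47 and −0.55, and Gli3 was at 0.72, or 0.38 on a dimmer probe set.

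Many cilium genes carry an X-box, the DNA element bound by RFX transcription factors. RefSeq promoters (GRCm38.p6, 250 bases before to 50 after the transcription start) were at hand for 49 of the 54 genes, and the X-box was searched on both strands as GTTNCC and GGNNAC with 2 bases between them, where N is any base. The pattern was in the promoters of 10 of these 49 genes (20.4%), against 403 of all 27025 genes with a promoter (1.49%). A stricter form that ended in GGNAAC was in 4 of 49 (8.16%), against 0.529%. In all, 14 spellings and other motifs were counted with the results known, and this one was chosen after its counts were seen. The pattern can match both strands at 1 place, which was counted once. More members held the common motifs CCAAT (29 of 49, against 41.1% of all genes) and CGGAAG (24 of 49, against 18.8%), and 39 of 49 lacked the X-box pattern. The 10 matches are shown because the X-box is a known element of cilium genes, read in the direction of the pattern, with its fixed letters in capitals.
Ahi1 (chr10:20952568-20952581, plus strand): GTTaCCtaGGcaAC
Bbs1 (chr19:4906613-4906626, minus strand): GTTgCCaaGGcgAC
Bbs4 (chr9:59353472-59353485, plus strand): GTTtCCcgGGcgAC
Bbs7 (chr3:36613497-36613510, minus strand): GTTgCCttGGaaAC
Ift57 (chr16:49699207-49699220, plus strand): GTTgCCgtGGtgAC
Mks1 (chr11:87853191-87853204, plus strand): GTTgCCagGGgaAC
Tctn1 (chr5:122264411-122264424, minus strand): GTTgCCcgGGcaAC
Tctn2 (chr5:124598687-124598700, plus strand): GTTaCCatGGctAC
Tmem216 (chr19:10555731-10555744, minus strand): GTTtCCatGGggAC
Tmem231 (chr8:111933789-111933802, minus strand): GTTgCCgtGGagAC

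Of these 10 genes, 4 (Bbs4, Bbs7, Ift57 and Tctn1) were at least 1.5-fold lower, against 12.1% of all measured genes. The median log2 ratio over all 10 was −0.53, and that of all measured genes −0.06. Of the 35 measured members whose promoters lacked the pattern, 11 were at least 1.5-fold lower, with a median of −0.42. Ift122, Dync2li1, Ift81 and Ift80 had no promoter at hand and are in neither group. Each of them was at least 1.5-fold lower, at −1.37, −1.36, −0.82 and −0.81. The promoters of Ift57 and Bbs7 are shown whole, since these are the genes with a match before the start that were at least 1.5-fold lower in 4 mM phosphate, with the fixed letters of the match in capitals. The Ift57 promoter also holds the cyclic AMP response element TGACGTCA, which was in 2 of 49 members (4.08%) and 2.03% of all genes, the other member being Mkks.
Ift57 (chr16:49699044-49699343, plus strand): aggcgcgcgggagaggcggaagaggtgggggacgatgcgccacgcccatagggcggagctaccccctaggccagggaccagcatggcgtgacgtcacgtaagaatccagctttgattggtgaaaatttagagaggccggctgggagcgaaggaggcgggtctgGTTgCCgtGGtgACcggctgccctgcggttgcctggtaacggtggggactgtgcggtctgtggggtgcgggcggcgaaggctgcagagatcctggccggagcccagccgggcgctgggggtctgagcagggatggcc
Bbs7 (chr3:36613340-36613639, minus strand): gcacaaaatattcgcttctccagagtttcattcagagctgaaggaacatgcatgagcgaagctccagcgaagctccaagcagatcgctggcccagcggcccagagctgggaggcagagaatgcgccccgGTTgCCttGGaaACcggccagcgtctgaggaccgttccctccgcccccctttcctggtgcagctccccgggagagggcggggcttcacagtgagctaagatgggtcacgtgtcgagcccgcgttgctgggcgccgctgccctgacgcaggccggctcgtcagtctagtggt

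**Figure D4:**
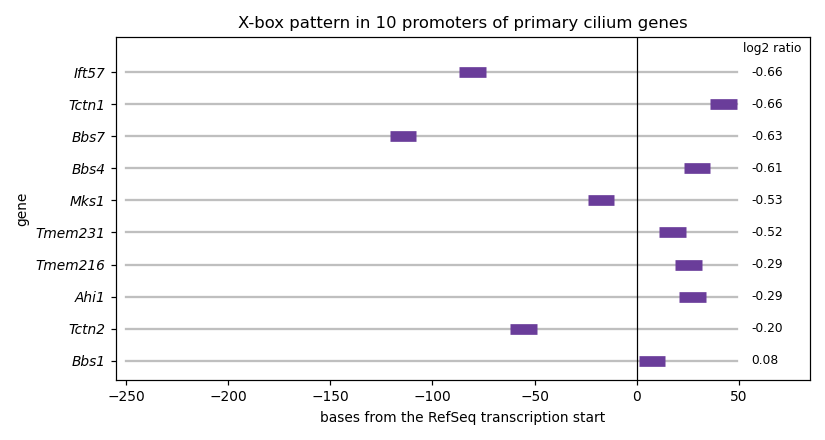
Position of the X-box pattern (purple) in the 10 promoters that hold it, in bases from the RefSeq transcription start (0), with the log2 ratio of 4 mM over 1 mM phosphate at the right. Genes are ordered by that ratio, −0.66 at the top to 0.08 at the bottom. Matches begin between −121 and 36 and follow no order with the ratio.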

How the data were processed

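RNA of 2 cultures, 1 in 4 mM and 1 in 1 mM phosphate, was hybridised to Affymetrix mouse arrays from 100 ng of total RNA each, per the labels' protocols. Each deposited value is a linear intensity, 1 per probe set, which the authors made with the MAS5 method of GCOS 1.4 (submitters' processing notes). The method scales each array by 1 factor. The mean trimmed by 2% at either end was 200 on both arrays, a scaling which hides a change in total mRNA per cell, and dim probe sets are noisy. Of 45037 probe sets other than controls, 51.0% in 4 mM and 49.0% in 1 mM phosphate lay above the floor. The 3′ to 5′ signal ratio was 1.43 in 4 mM and 1.36 in 1 mM for actin. All 24 poly-A spike probe sets were brighter in 4 mM phosphate, by a median log2 ratio of 0.46. All 18 probe sets of the hybridisation spikes, added after labelling, were brighter too, by a median of 0.23 (0.14 to 0.47). What the spike differences reflect was not tested.

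Probe sets were named only where the platform annotation gave 1 gene (34945 of 45037; 932 had several and 9160 none), with symbols updated by Entrez identifier through RefSeq GRCm38.p6 (0 changed). Log2 ratios were taken as 4 mM minus 1 mM after raising signals to the pooled median of both arrays, and each gene took its brightest probe set naming only it. A ratio with 1 array under the floor is written as at least N-fold. Calls are by size, at 1.5-fold and 2-fold. The calculation was tested on simulated arrays (Python 3.11.15, pandas 2.3.3). The members and lists were chosen with earlier results of these data known. Any member could be named, the 3 highest and 3 lowest of the other cilium genes, and any gene of the shorter lists. Alternatives were other floors, a pseudocount, quantile and loess normalization, the poly-A spikes as reference, the median of probe sets, members above the floor on both arrays and, added after seeing the data, leaving out probe sets that may share targets.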

Additional observations from a re-analysis of the deposited data

How the results depend on the processing

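The member median stayed below 0 under all 11 other settings, and was lower than the median of all genes by 0.35 to 0.44 in log2 ratio in each. With the poly-A spikes set to equal signal, every log2 ratio moved by −0.46, so the median of all genes became −0.52, that of the members −0.92 and that of the other cilium genes −0.76. Under that reference 43 members were at least 1.5-fold and 20 at least 2-fold lower, against 43.1% and 14.1% of all genes. With a floor of 100, which left 35 members, 10 were at least 1.5-fold and 3 at least 2-fold lower, against 8.32% and 1.34% of all genes. Without a floor, 1 of 50 members was at least 1.5-fold higher, against 18.7% of all genes. This was Tmem67, also 2-fold higher, which was under the main floor on both arrays. The other settings gave from 13 to 20 members at least 1.5-fold lower. The 13 (26.5%) came with a pseudocount, against 9.13% of all genes, and the 20 (40.0%) without a floor, against 18.7%. Of 517 ratios of single members under these settings, 453 moved by less than 1 technical deviation, 64 by more, and no called member changed sign. The lowest member, Ift122, was at −0.65 without probe sets that may share targets. No paired analysis was possible because each group held 1 array.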

Other observations

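The RFX factor genes, other than Rfx3, were named after their values were seen. Rfx1 had a log2 ratio of 0.14, Rfx5 of −0.53 and Rfx7 of −0.18, while Rfx2 and Rfx4 were under the floor on both arrays. Among 187 measured genes outside the set with the X-box pattern in a promoter, 11.2% were at least 1.5-fold lower in 4 mM phosphate, with a median of −0.09. Among 9672 without it, 11.9% were, with a median of −0.05.

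The RefSeq gene span had a median of 38.5 kb over the 49 members and 23.7 kb over 12237 measured genes with a length. Across members, which share both arrays, Spearman's rho between span and log2 ratio was −0.33 (n = 49), and across all these genes −0.04, given as a description only.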
